A study of Mus musculus with 2 samples.

Results

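Collagen genes other than the characteristic cartilage collagens were examined in distal forelimbs of mouse embryos at E12.5, the part of the limb bud that forms the digits. The set holds every gene of the deposited transcript table whose symbol has the form of a collagen chain, such as Col1a1, apart from Col2a1, Col9a1, Col10a1, Col11a1 and Col11a2. It comprised 38 of the 23157 genes, of which 8 encode fibrillar chains, 9 encode chains of basement membranes and 21 encode other types. Col9a2 and Col9a3 stay in the set by this rule, although they encode chains of type IX collagen, a cartilage collagen, so that the set as a whole does not stand for tissue outside cartilage. A collagen gene listed under a symbol of another form (Emid2) is not in it.

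RNA was sequenced from wild-type embryos and from homozygotes for the inversion HoxD Inv(TpSB1-Itga6), with 1 library each. In this allele, 2.4 Mb of chromosome 2 are inverted so that digit enhancers of the Hoxd genes are moved away from them. Per the labels, both are distal limb at E12.5 of strain C57Bl6CBAF1, and the RNA came from pools of 3 pairs of forelimbs. No separate embryos, litters or clones can be told apart within a pool. None of the 38 genes lies in the inverted segment (0 genes), and 3 lie elsewhere on chromosome 2 (Col5a1, Col9a3 and Col20a1). The comparison asks how the collagen genes of the limb differed between both genotypes.

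Collagens are proteins built of chains that wind around each other in a triple helix, and they make up much of the extracellular matrix. Fibrillar collagens form the fibrils of dermis, tendon and bone, type IV collagen forms the sheet-like network of basement membranes under epithelia and around vessels, and type VI collagen forms beaded filaments close to cells. FACIT collagens (fibril-associated collagens with interrupted triple helices) sit on the surface of fibrils, and transmembrane collagens are anchored in the cell membrane. In the limb bud, the fibrillar chains are made mainly by mesenchyme, perichondrium and tendon progenitors, and the ectoderm and vessels contribute to basement membranes.

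The wild-type library held 9280660 reads assigned to transcripts and the inversion library 9466154. Values given as reads are the whole reads recovered from the deposited values, and normalized reads are these divided by the authors' size factor. Each log2 ratio is that of inversion over wild type on the scale of log2(normalized reads + 1), which shrinks the ratio of a gene that has few reads. A mean of 10 normalized reads was required for a ratio, which 16756 genes reached, and their median log2 ratio was -0.02. As each genotype has 1 library, no difference has a replicate check, and no test between the genotypes was possible. The 95% intervals were obtained by the exact Clopper-Pearson method from the part of each gene's reads that came from the inversion library. They reflect counting error alone and say how far the libraries, rather than the genotypes, differed. In RNA of whole tissue, fewer cells of a type and less RNA per cell cannot be told apart.

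The libraries also differed in sex and tissue markers. Xist, which is transcribed from the inactive X chromosome of females, had 2607 wild-type and 13 inversion reads, and the 4 genes of the Y chromosome examined had log2 ratios of 1.45 to 2.13. The 8 muscle markers summed to 937 wild-type and 2383 inversion reads, with 7 of 8 higher there. The 5 ectoderm markers summed to 4955 and 4378 reads, each lower in the inversion library. Of all 16756 genes tested, 7809 were higher and 8947 lower. The 5 markers of limb mesenchyme summed to 8876 and 8862 reads, with members on both sides of 0. Lhx2 had 1052 and 801 reads and Msx1 had 1419 and 1248, both with intervals below 0, while Tbx5 had 1663 and 1959 reads and an interval above 0, and Prrx1 had 3857 and 3913. Schwann cell and macrophage lists had median log2 ratios of 0.18 and -0.17. Markers of muscle, ectoderm and other tissues are set beside the collagens they move with below.

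Of the 38 collagen genes, 33 passed the filter. The other 5 were Col4a3 (1 wild-type and 5 inversion reads), Col4a4 (9 and 8), Col5a3 (3 and 12), Col6a5 (2 and 9) and Col6a6 (5 and 10). Nearest to the limit were Col4a4 with a mean of 8.51 normalized reads below it and Col28a1 with 13.5 above it. Together the 33 genes took 0.603% of the reads of the wild-type library and 0.679% of those of the inversion library. In summed normalized reads this is a log2 ratio of 0.16 (95% interval 0.15 to 0.18), and the median over the 33 genes was also 0.16, with 20 higher and 13 lower, where 7809 of all 16756 genes tested were higher. Among the 27 with a mean of 100 or more, the median was 0.07.

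**Figure D1:**
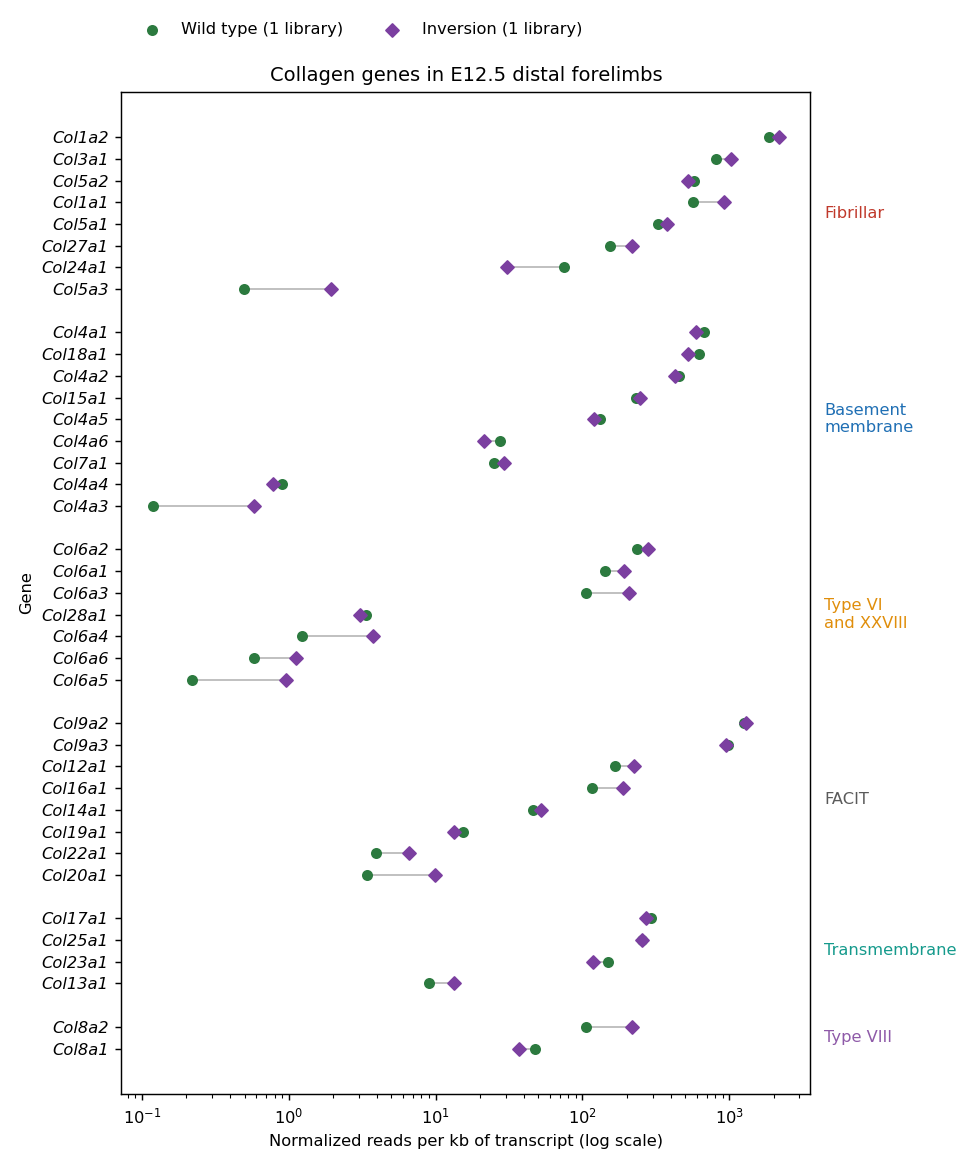
Normalized reads per kilobase of transcript (log axis) of the 38 collagen genes in the wild-type library (circles) and the inversion library (diamonds), with 1 library per genotype and no error bars. Col1a2 was the highest in both libraries, and 5 genes at the left edge did not reach the filter.

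An increase of at least 2-fold was seen for 3 of the 33 genes (Col20a1, Col6a4 and Col8a2), against 3.99% of all genes tested. With protein-coding transcripts only, the count was 1, where 412 of 13582 genes tested were at least 2-fold higher. This setting also leaves out transcripts that are absent from the annotation used here, GENCODE M21. With the transcript of highest mean of each gene, the count was 2. A decrease of at least 2-fold was seen for 1 gene (Col24a1), against 0.483% of all genes. At 1.5-fold the counts were 7 genes higher, against 9.41% of all genes, and 1 lower, against 2.04%. Counting intervals lay wholly above 0 for 14 of the 33 genes (42.4%), against 16.7% of all genes tested, and wholly below 0 for 9 (27.3%), against 13.0%. Deeper genes have narrower intervals, and among genes with a mean of at least 100 the shares were 40.7% of the collagens against 16.9% of all genes above 0, and 33.3% against 17.0% below 0. The collagens thus moved in both directions, and the groups differed in sign, which could not be tested with these libraries. The median log2 ratio was 0.23 over the 7 fibrillar genes that passed, -0.13 over the 7 of basement membranes and 0.25 over the 19 others.

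**Figure D2:**
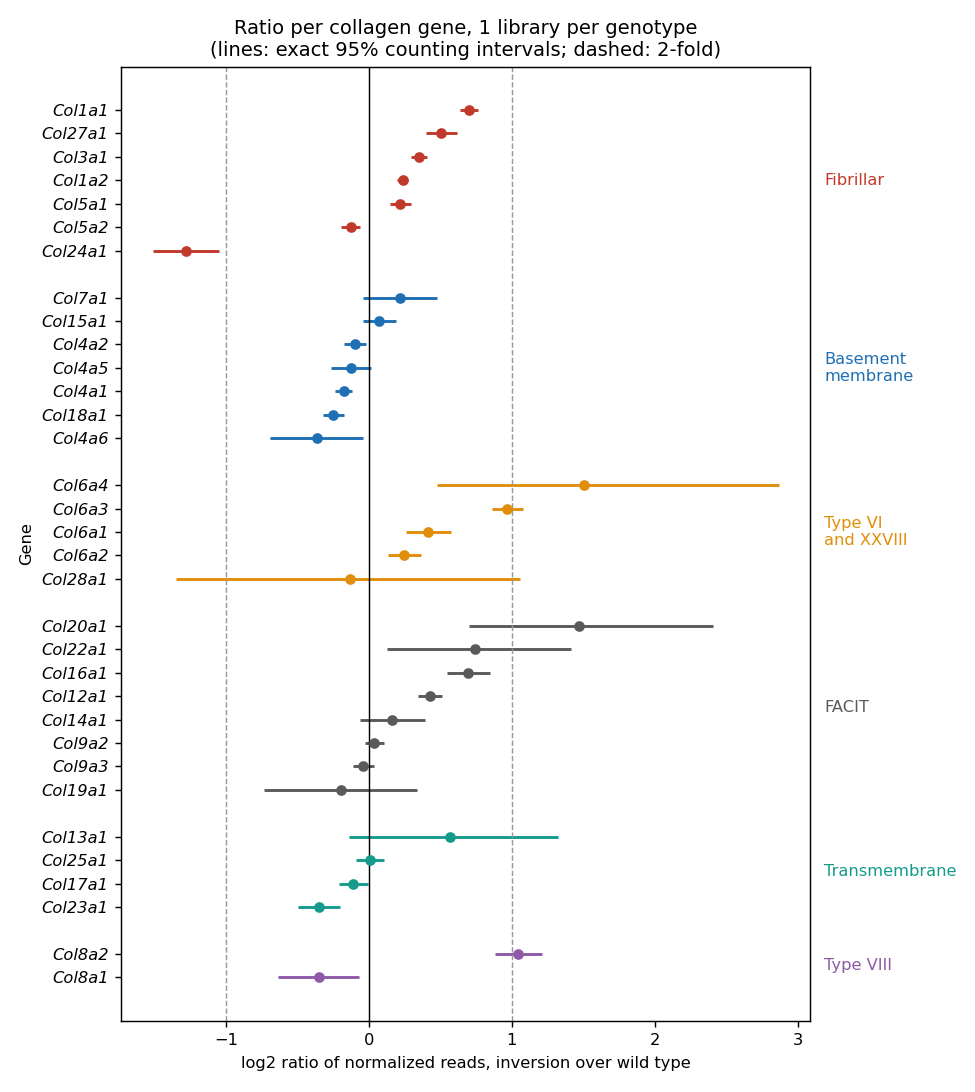
The inversion over wild-type log2 ratio for the 33 collagen genes that passed the filter, by type, with exact 95% counting intervals as lines and dashed lines at 2-fold. The intervals of 5 of 7 fibrillar genes lie above 0, and those of 4 of 7 basement membrane genes lie below it.

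**Figure D3:**
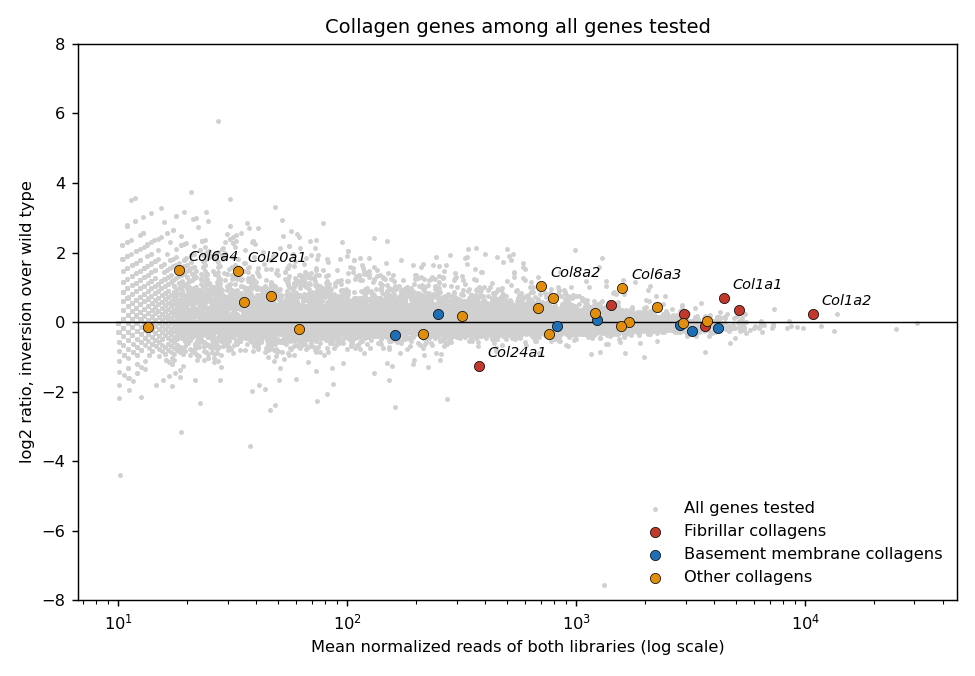
The inversion over wild-type log2 ratio against the mean normalized reads of both libraries (log axis) for all 16756 genes tested (grey) and the 33 collagen genes (coloured by group). Col24a1 with -1.28 and Col8a2 with 1.04 stand at the edges of the cloud for their level, and Col20a1 and Col6a4 lie among genes with few reads.

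Promoter sequences are shown for the collagen gene with the most reads (Col1a2) and for the 3 genes with the largest log2 ratio in either direction among collagens with a mean of at least 100 (Col8a2, Col6a3 and Col24a1). Each is the 250 bases before the RefSeq transcription start on GRCm38.p6, read 5′ to 3′ on the strand of the gene. The positions are chr6:4505368-4505617 (plus strand) for Col1a2, chr4:126286544-126286793 (plus strand) for Col8a2, chr1:90843972-90844221 (minus strand) for Col6a3 and chr3:145292222-145292471 (plus strand) for Col24a1. In GENCODE M21, Col1a2 starts earlier, at 4504814, so its window lies within the gene as annotated there. Capitals mark the motif CCAAT, the motif GGGCGG and the motif TATAAA on either strand, and matches of GGGCGG may overlap.
Col1a2: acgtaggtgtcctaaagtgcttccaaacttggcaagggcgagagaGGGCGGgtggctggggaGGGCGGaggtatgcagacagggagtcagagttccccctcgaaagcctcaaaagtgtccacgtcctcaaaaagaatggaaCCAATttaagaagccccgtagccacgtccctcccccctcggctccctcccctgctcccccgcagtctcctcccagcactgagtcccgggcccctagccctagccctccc
Col8a2: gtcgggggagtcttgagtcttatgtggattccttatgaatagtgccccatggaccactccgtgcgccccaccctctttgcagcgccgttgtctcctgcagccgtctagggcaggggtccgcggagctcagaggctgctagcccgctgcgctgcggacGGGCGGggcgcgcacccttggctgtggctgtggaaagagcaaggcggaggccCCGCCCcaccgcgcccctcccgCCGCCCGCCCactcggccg
Col6a3: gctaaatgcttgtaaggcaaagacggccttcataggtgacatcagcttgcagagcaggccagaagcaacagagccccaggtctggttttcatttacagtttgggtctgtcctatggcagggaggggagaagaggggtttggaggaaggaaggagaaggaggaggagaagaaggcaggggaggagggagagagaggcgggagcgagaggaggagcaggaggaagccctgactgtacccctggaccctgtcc
Col24a1: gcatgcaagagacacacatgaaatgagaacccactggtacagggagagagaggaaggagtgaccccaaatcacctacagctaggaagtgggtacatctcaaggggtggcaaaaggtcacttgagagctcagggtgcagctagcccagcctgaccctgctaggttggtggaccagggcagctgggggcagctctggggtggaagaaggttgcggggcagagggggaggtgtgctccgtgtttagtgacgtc

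The window of Col1a2 held 1 CCAAT and 2 GGGCGG, that of Col8a2 held 4 GGGCGG, of which the last pair overlaps, and those of Col6a3 and Col24a1 held none of the 3 motifs. CCAAT is the core of the site bound by nuclear factor Y, GGGCGG is the core of the GC box bound by Sp1 and related factors, and TATAAA is a form of the TATA box. RefSeq promoter windows were found for 31 of the 38 genes, 33 windows in all. GGGCGG was in 20 of these (60.6%), against 32.7% of 32851 windows of the same length across genes. CCAAT was in 11 (33.3%), against 33.8%, and TATAAA in 3 (9.09%), against 12.4%.

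Among the fibrillar collagens, 5 of the 7 genes that passed had counting intervals above 0 and 2 had intervals below, against 16.7% and 13.0% of all genes tested. Col1a1 and Col1a2 encode the chains of type I collagen, the main collagen of bone, tendon and skin. Col1a1 (chromosome 11, 94936224 to 94953042 on GRCm38) had 3313 wild-type and 5520 inversion reads, with a log2 ratio of 0.70 (95% interval 0.64 to 0.76). Col1a2 (chromosome 6, 4504814 to 4541544) had 9789 and 11812 reads, a log2 ratio of 0.23 (0.20 to 0.27). Both chains were higher in the inversion library, and Col1a1 by more. Per kilobase, Col1a2 was the highest of all collagens of the set in both libraries (1853 and 2181 normalized reads per kb), while Col1a1 went from rank 8 to rank 5.

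Col3a1 encodes type III collagen, which forms fibrils together with type I in soft tissue. It had 4446 wild-type and 5809 inversion reads, with a log2 ratio of 0.35 (0.29 to 0.41). Type V collagen starts fibrils and sets their width, and its chains differed in direction. Col5a1 had 2704 and 3224 reads, with a log2 ratio of 0.22 (0.14 to 0.29). Col5a2 had 3756 and 3526 reads, with a log2 ratio of -0.13 (-0.19 to -0.06). The intervals of both exclude 0 on opposite sides. Col5a3, the remaining type V chain, had 3 and 12 reads and gave no ratio.

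Col24a1 and Col27a1 encode fibrillar chains of types XXIV and XXVII, known from developing bone and cartilage. They went opposite ways. Col24a1 (chromosome 3, 145292472 to 145552011) had 524 wild-type and 221 inversion reads, with a log2 ratio of -1.28 (-1.51 to -1.05), or 2.43-fold lower. It was the lowest ratio of the 33 genes. Col27a1 had 1154 and 1679 reads, a log2 ratio of 0.50 (0.40 to 0.61).

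Summed over the 7 fibrillar genes, the reads went from 25686 to 31791, a log2 ratio of 0.27 (0.25 to 0.30). They took 0.277% of the wild-type library and 0.336% of the inversion library. Without Col1a2, which has the most reads, the log2 ratio of the sum was 0.29. The 5 cartilage collagens left out of the set gave a close value for comparison, with 12123 and 15099 reads and a log2 ratio of 0.28 (0.25 to 0.32). Among them Col2a1, with the most reads, had a log2 ratio of 0.37, Col11a2 one of 0.56, and Col10a1 one of -0.49 whose interval holds 0.

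Markers of bone, perichondrium and tendon were higher alongside the fibrillar sum. Those of limb mesenchyme, given above, had a median log2 ratio of -0.02 with 3 of 5 lower, where 8947 of 16756 genes tested were lower. Of the bone and perichondrium markers, Runx2 had 263 and 508 reads (log2 ratio 0.91), Sp7 76 and 187 (1.25) and Spp1 31 and 50 (0.64), while Bglap, a marker of mature osteoblasts, had 2 and 1 reads. These 4 markers summed to 372 and 746 reads. The 4 tendon markers summed to 1176 and 1414 reads with a median log2 ratio of 0.24. Each was higher in the inversion library, where 7809 of 16756 genes tested were. The cartilage markers Acan (440 and 828 reads) and Matn1 (100 and 331) were higher, whereas the 5 cartilage markers together summed to 5549 and 5958 reads with a median of 0.07 and Sox9 had 1823 and 1751 reads and Sox6 1821 and 1581. Their part in the fibrillar result was not tested.

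Genes of basement membrane collagens had log2 ratios mostly below 0 in the inversion library, but by small amounts. Of the 7 that passed, 5 were lower, where 8947 of 16756 genes tested were. Counting intervals lay below 0 for 4 of the 7, against 13.0% of all genes, and above 0 for 0 of 7, against 16.7%. Among genes with a mean of at least 100, these shares were 17.0% below 0 and 16.9% above 0. Their sum went from 13153 to 12196 reads, a log2 ratio of -0.15 (-0.18 to -0.11). Col4a1 and Col4a2 encode the chains of the type IV network found in nearly all basement membranes. Col4a1 had 4367 wild-type and 3957 inversion reads, with a log2 ratio of -0.18 (-0.24 to -0.12). Col4a2 had 2906 and 2786 reads, a log2 ratio of -0.10 (-0.17 to -0.02). On its main protein-coding transcript the ratio was -0.04, with an interval that holds 0 (-0.12 to 0.04). Col4a1 and Col4a2 lie head to head on opposite strands of chromosome 8, with starts at 11312826 and 11312805, and their exons overlap there. Whether the assignment of reads used the strand is not stated in the sources used here, so reads from this overlap cannot be told apart.

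Col4a5 and Col4a6, neighbours on the X chromosome, encode chains of basement membranes of skin and kidney. Col4a5 had 848 and 796 reads, a log2 ratio of -0.13 whose interval holds 0 (-0.27 to 0.01). Col4a6 had 180 and 143 reads, a log2 ratio of -0.37 (-0.70 to -0.04). Both are X-linked, and the libraries differed in Xist as given above, whose part in these ratios was not tested. Col4a3 and Col4a4, the chains best known from the kidney glomerulus, had 1 to 9 reads in either library.

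Col18a1 encodes the basement membrane collagen whose end fragment is endostatin. It had 3434 wild-type and 2961 inversion reads, with a log2 ratio of -0.25 (-0.32 to -0.18). This is the largest difference in reads of the group, and all 4 of its transcripts with at least 100 reads were lower. Its relative Col15a1 had 1190 and 1281 reads, a log2 ratio of 0.07 whose interval holds 0 (-0.04 to 0.19). Col7a1, which forms the fibrils that anchor the epidermis, had 228 and 272 reads, a log2 ratio of 0.22 whose interval also holds 0 (-0.04 to 0.48).

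Markers of ectoderm, which rests on a basement membrane, were lower as well, with counting intervals below 0 for 4 of 5, against 13.0% of all genes tested. The 5 ectoderm markers had a median log2 ratio of -0.22, with Krt5 at 1728 and 1520 reads, Krt14 at 942 and 816, and Epcam at 531 and 426. The 6 endothelial markers summed to 4266 and 4081 reads with a median of -0.10. Each was lower in the inversion library, where 8947 of 16756 genes tested were. An interval below 0 was found for 2 of the 6, against 13.0% of all genes tested, while that of Cdh5 (1253 and 1217 reads) holds 0. Their part in the basement membrane result was not tested.

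Of the 5 genes of type VI and type XXVIII collagen that passed, 4 had counting intervals above 0, against 16.7% of all genes tested. All 4 were of type VI. Col6a1, Col6a2 and Col6a3 encode the chains of its usual form. Col6a3 (chromosome 1, 90765923 to 90843971) had 1062 wild-type and 2128 inversion reads, with a log2 ratio of 0.97 (0.86 to 1.07), just under the 2-fold line. Col6a1 had 579 and 791 reads, a log2 ratio of 0.41 (0.26 to 0.57). Col6a2 had 1086 and 1321 reads, a log2 ratio of 0.25 (0.13 to 0.36). All intervals exclude 0, and those of Col6a1 and Col6a2 lie below that of Col6a3. With protein-coding transcripts only, the log2 ratio of Col6a1 was 0.75, since most of its reads were assigned to a transcript that is not in GENCODE M21.

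Col6a4, an additional type VI chain, had 9 and 28 reads and a log2 ratio of 1.503 with a wide interval (0.48 to 2.87). It was below the filter with protein-coding transcripts only, and also with the transcript of highest mean. Col6a5 and Col6a6 had at most 10 reads in either library. Col28a1, a related beaded-filament collagen, had 14 and 13 reads. Over the 5 genes of this kind that passed, the sum went from 2750 to 4281 reads, a log2 ratio of 0.60 (0.53 to 0.67). Muscle, tendon sheath and connective tissue are known sites of type VI collagen. The muscle markers had a median log2 ratio of 1.02, led by Pax7 (7 and 36 reads), Ttn (125 and 555) and Myh3 (189 and 715), with Pax3 (26 and 20) the 1 marker lower. Their part in the type VI result was not tested.

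Type VIII collagen, a short-chain collagen of vessel walls and of the membrane below the corneal endothelium, showed opposite directions for its chains. Col8a2 (chromosome 4, 126286793 to 126314330) had 453 wild-type and 958 inversion reads, with a log2 ratio of 1.04 (0.88 to 1.21). It was the only collagen of the set past 2-fold higher with a mean of at least 100, and per kilobase it went from rank 22 to rank 16. Col8a1 had 238 and 191 reads, a log2 ratio of -0.35 (-0.64 to -0.07).

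FACIT collagens split into genes near 0 and genes that were higher. Col12a1, found in dense connective tissue and perichondrium, had 1902 wild-type and 2623 inversion reads, with a log2 ratio of 0.43 (0.34 to 0.51). Col16a1 had 597 and 991 reads, a log2 ratio of 0.69 (0.55 to 0.84). Col14a1, a relative of Col12a1, had 295 and 339 reads, a log2 ratio of 0.16 whose interval holds 0. Few reads were found for Col22a1, known from tissue junctions such as that of muscle and tendon, with 34 and 59 (log2 ratio 0.74, 0.13 to 1.41). Col20a1 had 17 and 50 reads (1.47, 0.70 to 2.41). With protein-coding transcripts only, its log2 ratio was 0.75, below 2-fold. This setting leaves out ENSMUST00000080705, which had 0 and 19 reads and is not in GENCODE M21. Its protein-coding transcripts went opposite ways, with 13 and 5 reads for ENSMUST00000149179 and 4 and 24 for ENSMUST00000108856. Col19a1 had 65 and 58 reads (-0.20, -0.74 to 0.33).

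Col9a2 and Col9a3, the type IX chains, were the FACIT genes with the most reads. Col9a2 had 3636 and 3826 reads, a log2 ratio of 0.04 (-0.03 to 0.10). Col9a3 had 2938 and 2928 reads, a log2 ratio of -0.04 (-0.11 to 0.03). Both intervals hold 0, while Col9a1, the type IX chain that the rule leaves out, had 3531 and 4138 reads and a log2 ratio of 0.19 (0.13 to 0.26). Without Col9a2 and Col9a3, the median over the other collagens that are neither fibrillar nor of basement membranes was 0.41 instead of 0.25, and the log2 ratio of their summed reads 0.33 instead of 0.21.

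Of the 4 genes of transmembrane collagens, 0 had a counting interval above 0, against 16.7% of all genes tested. Intervals lay below 0 for 2 of the 4, against 13.0%. Col17a1, a component of hemidesmosomes in the epidermis, had 1614 wild-type and 1533 inversion reads, with a log2 ratio of -0.11 (-0.21 to -0.01). Col23a1 had 839 and 675 reads, a log2 ratio of -0.35 (-0.50 to -0.20). Col25a1, which is needed for motor axons to enter muscle, had 1680 and 1734 reads, a log2 ratio of 0.01 (-0.09 to 0.11). Col13a1, a collagen of the neuromuscular junction, had 28 and 43 reads, a log2 ratio of 0.57 whose interval holds 0 (-0.14 to 1.32). The ectoderm markers given above were lower alongside Col17a1, and their part in its ratio was not tested.

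Chains of the same collagen type did not always keep their ratio. Per kilobase, Col1a1 stood to Col1a2 at 0.305 in wild type and 0.421 in the inversion, a difference of 0.47 in log2 (0.39 to 0.54). Col5a1 stood to Col5a2 at 0.567 and 0.721, a difference of 0.34 (0.24 to 0.44). For Col8a2 over Col8a1 the ratio went from 2.24 to 5.91, a difference of 1.40 (1.07 to 1.73). For Col6a3 over Col6a1 it went from 0.744 to 1.09, a difference of 0.55 (0.36 to 0.74), and for Col6a3 over Col6a2 the difference was 0.72 (0.56 to 0.88). By contrast, the intervals of the difference held 0 for Col4a1 over Col4a2 (-0.08, -0.18 to 0.02), Col4a5 over Col4a6 (0.24, -0.12 to 0.60), Col6a1 over Col6a2 (0.17, -0.03 to 0.36) and Col9a3 over Col9a2 (-0.08, -0.18 to 0.02). Some of these values depend on the transcripts counted. When only protein-coding transcripts were counted, which was tried for these pairs after their values were seen, the difference was 0.27 (0.15 to 0.39) for Col1a1 over Col1a2, whereas the transcript with the highest mean of each gene gave 0.65 (0.55 to 0.75). The protein-coding count leaves out transcripts that are not in GENCODE M21. For Col1a1 these include ENSMUST00000107754, with 52.9% of its wild-type and 56.8% of its inversion reads. For Col1a2 they include ENSMUST00000169615, with 50.5% and 47.7%, and for Col6a1 ENSMUST00000105412, with 81.2% and 76.1%. Among type VI chains, the protein-coding count gave a difference of 0.19 for Col6a3 over Col6a1, with an interval that holds 0 (-0.19 to 0.57). For Col6a1 over Col6a2 it gave 0.53 (0.16 to 0.90), and for Col6a3 over Col6a2 the difference stayed at 0.72 (0.54 to 0.90). The intervals of Col4a1 over Col4a2 (-0.13, -0.23 to -0.03) and Col9a3 over Col9a2 (-0.20, -0.37 to -0.03) then lay below 0. The differences for type V and type VIII chains were 0.34 and 1.39. The ratio per kilobase also depends on the transcript length chosen, here the longest protein-coding transcript, which cancels in the difference between the libraries.

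Of the 23 genes with several transcripts of at least 100 reads over both libraries, 11 had all of these higher, 4 had all lower and 8 were mixed (Col5a2, Col7a1, Col9a3, Col12a1, Col15a1, Col17a1, Col25a1 and Col27a1). The same count was not made over all genes, and transcripts of a gene can share reads, so it describes these genes only. All 9 transcripts of Col1a2 with at least 100 reads had log2 ratios above 0, as had 5 of Col6a3, 4 of Col1a1, 3 of Col3a1 and 2 of Col8a2. In Col24a1, the protein-coding ENSMUST00000029848 made up 79.8% of the wild-type and 79.6% of the inversion reads, with 418 and 176. Col7a1 had the widest spread. Its protein-coding transcript ENSMUST00000026740 had 100 and 14 reads, and its protein-coding transcript ENSMUST00000112070 had 125 and 236, so that the share of the latter in the gene's reads went from 54.8% (95% interval 48.1 to 61.4) to 86.8% (82.2 to 90.6). Judged by that transcript, which has the highest mean, the log2 ratio of Col7a1 was 0.88 instead of 0.22.

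In Col4a2, the retained-intron transcript ENSMUST00000145295 had 134 and 43 reads, a log2 ratio of -1.65, whereas the main protein-coding transcript ENSMUST00000033899 had 2692 and 2682 reads, a ratio of -0.04 whose interval holds 0. In Col27a1, the retained-intron transcript ENSMUST00000149856 had 26 and 110 reads, a log2 ratio of 2.004, against 0.43 for the main transcript. In Col6a2, ENSMUST00000105413 had 54 and 155 reads, a log2 ratio of 1.47, against 0.12 for ENSMUST00000001181 with 1022 and 1141. Reads shared by overlapping transcripts can be assigned to either, and how this was done is not given in the sources used here, so these splits are uncertain. If such reads were counted for each transcript, the gene sums would be too high and the counting intervals of all genes too narrow. By transcript type, 70.1% of the wild-type and 68.1% of the inversion reads of the 38 genes were on protein-coding transcripts, with 9.11% and 8.97% on retained-intron transcripts and 18.4% and 20.3% on transcripts that are not in GENCODE M21.

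**Figure D4:**
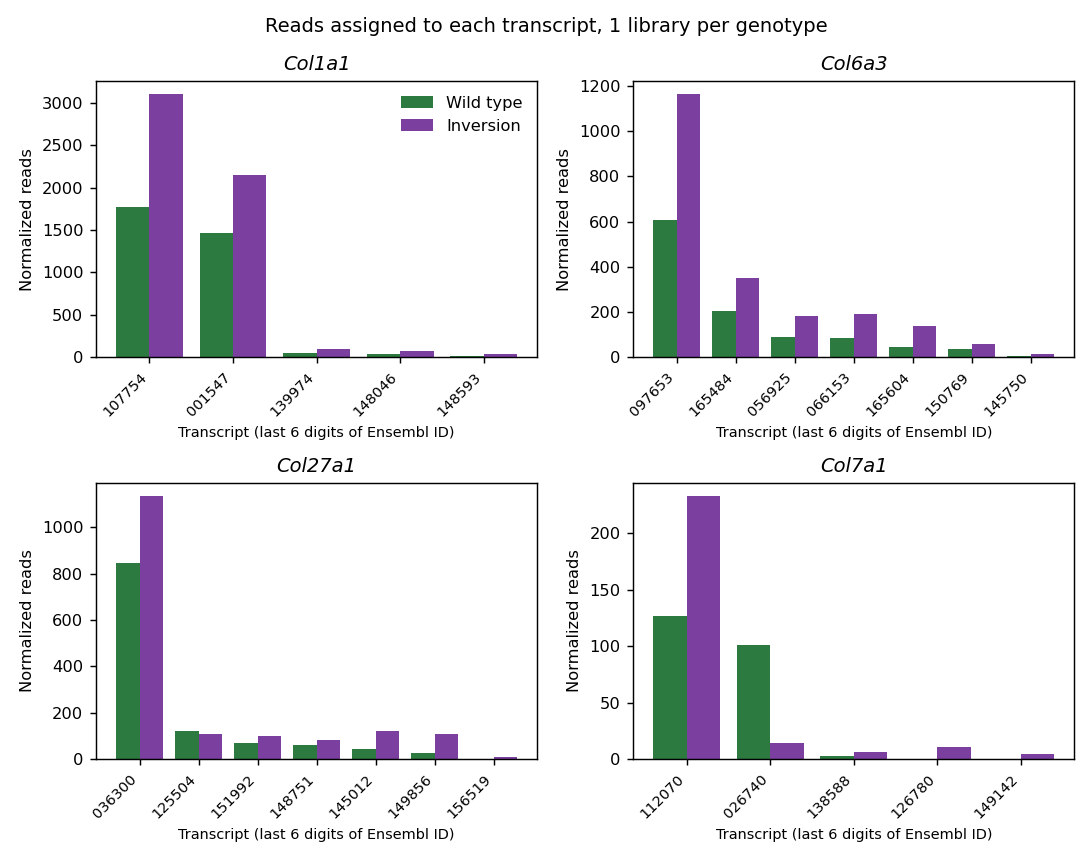
Normalized reads assigned to each transcript of Col1a1, Col6a3, Col27a1 and Col7a1 in the wild-type library (green bars) and the inversion library (purple bars), with 1 library per genotype and no error bars. The transcripts of Col1a1 and Col6a3 are higher in the inversion library throughout, and those of Col7a1 with most reads go opposite ways.

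Genes that turn collagen chains into mature fibrils had a smaller median than the fibrillar chains. Chains are hydroxylated on proline and lysine, folded and exported, trimmed of their propeptides and crosslinked. Over 5 lists of such genes, 31 passed the filter, 19 were higher and 12 lower, where 7809 of 16756 genes tested were higher. The median log2 ratio of the 31 was 0.06, and 4 genes were at least 1.5-fold higher, against 9.41% of all genes tested. The prolyl hydroxylation list had a median of -0.02 over 10 genes, with P4hb, the subunit shared by prolyl 4-hydroxylases, at 3060 and 2786 reads. The collagen chaperone Serpinh1 (HSP47) had 2744 and 2657 reads, in a folding list with a median of -0.04 over 4 genes. Lysyl hydroxylation and glycosylation had a median of 0.14 over 5 genes, and crosslinking one of 0.05 over 5, with Lox, the founding lysyl oxidase, at 507 and 539 reads. Loxl4, a lysyl oxidase with 10 and 19 reads, was the 1 crosslinking gene past 1.5-fold, and its interval holds 0.

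Propeptide removal had the highest median of these lists, 0.32 over 7 genes, with 6 of 7 higher, where 7809 of 16756 genes tested were. Bmp1, which removes the C-propeptide, had 1885 and 2411 reads, a log2 ratio of 0.32 (0.23 to 0.41). Of the 7 genes, 3 were at least 1.5-fold higher, against 9.41% of all genes tested, and these were the genes of the N-proteinases. Adamts2 had 122 and 196 reads, with a log2 ratio of 0.64 (0.31 to 0.99). Adamts3 had 233 and 381 reads (0.67, 0.43 to 0.91), and Adamts14 had 66 and 105 (0.63, 0.18 to 1.10). Those 3 are the enzymes that trim the N-propeptides of fibrillar collagens.

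Among collagen-degrading proteases, the median was 0.06 over 4 genes, with the gelatinase Mmp9 at 28 and 90 reads (1.61, 1.02 to 2.32) and the more abundant Mmp2 at 2855 and 2640. Of 7 collagen receptor genes, 1 was at least 1.5-fold higher, against 9.41% of all genes tested. This was Itga10, the integrin subunit of chondrocytes, with 30 and 100 reads (1.67, 1.10 to 2.34). The shared subunit Itgb1 had 3652 and 3266 reads. Of 9 genes of the matrix attached to fibrils, 8 were higher, with a median of 0.17, where 7809 of 16756 genes tested were higher. Counting intervals lay above 0 for 7 of the 9, against 16.7% of all genes tested, and below 0 for 0, against 13.0%. Kera, which encodes the proteoglycan keratocan, had 122 and 383 reads (1.61, 1.32 to 1.92).

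Of the 13 partners of collagen in basement membranes examined, 11 were higher and 2 lower, with a median log2 ratio of 0.19, where 7809 of 16756 genes tested were higher. Counting intervals lay above 0 for 7 of the 13, against 16.7% of all genes tested, and below 0 for 1, against 13.0%. The laminin genes Lama2, whose product surrounds muscle fibres, and Lamb2 had 187 and 315 reads (0.71, 0.45 to 0.99) and 692 and 1155 reads (0.70, 0.57 to 0.84). Hspg2, which encodes perlecan, a proteoglycan of both basement membranes and cartilage, had 1940 and 2867 reads (0.53, 0.44 to 0.61).

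**Figure D5:**
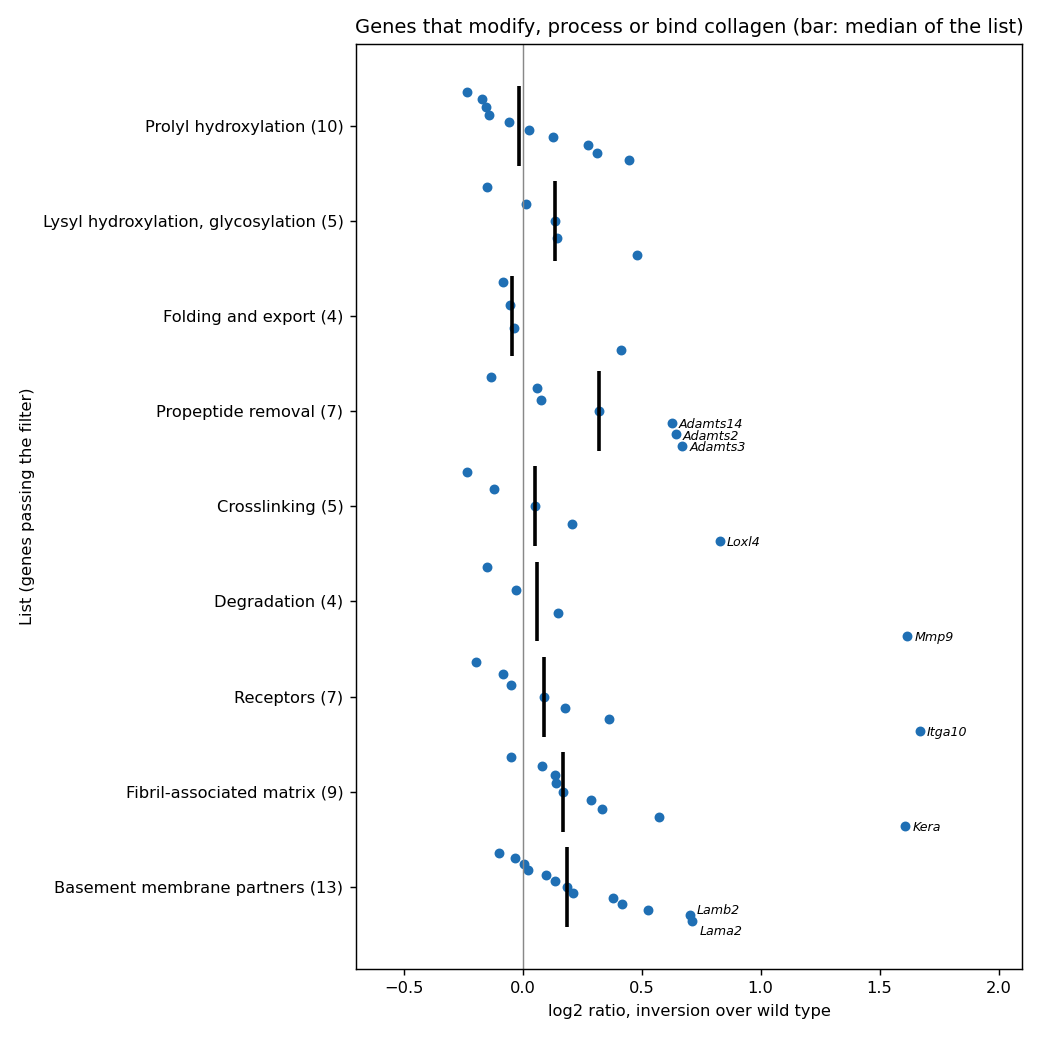
The inversion over wild-type log2 ratio for genes that modify, process, degrade or bind collagen, 1 point per gene that passed the filter, with the median of each list as a bar and genes at least 1.5-fold changed named. The medians run from -0.04 for folding and export to 0.32 for propeptide removal.

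GC content of the transcripts differs between collagens and other genes, with a median of 56.1% over the 33 collagens and 50.4% over all genes tested with a value. Over the 33 genes, GC content and log2 ratio had a Pearson correlation of 0.23 and a Spearman correlation of 0.25, a description over genes of the same libraries, and over all 13958 genes with a value the Pearson correlation was 0.07. After subtracting from each gene the median of the 500 genes nearest in GC content, the medians were 0.16 over all 33 genes, 0.24 over the fibrillar, -0.14 over the basement membrane and 0.24 over the other genes.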

How the data were processed

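Poly(A)-selected TruSeq Stranded libraries were sequenced by the authors as 100-bp single-end reads, mapped to NCBIM37 (mm9) and assigned to transcripts with the HTSstation pipeline, and the submitters' processing notes name Bowtie2. The deposited signal gives the reads of each transcript after division by the library's size factor, with 0.5 for no reads. The deposited table also holds the authors' own comparison (fold change as a ratio, its log2 value, p-value and adjusted p-value), which was not used. Every per-sample column was mapped.

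Read numbers came out whole for 100% of values (within 0.01 of a step) and were added up per gene symbol and chromosome. The alternatives named in the closing section include an exact binomial test on these reads. The members and gene lists were chosen with earlier results of these data known. Every collagen gene could be named, with a ratio at a mean of at least 10. Listed genes were named when 1.5-fold changed or defining, and transcripts for genes with several transcripts of at least 100 reads. Genes named only as examples of a list (P4hb, Serpinh1, Bmp1, Lox, Mmp2, Itgb1 and Hspg2) are its defining genes. Emid2, Pax3, Lhx2, Msx1, Tbx5, Sox6 and the transcripts of Col20a1 were chosen after their values were seen. A listed gene (1 in number) is not reported here. Lengths, GC content, types and positions are from GENCODE M21 (GRCm38), matched by transcript identifier for 120 of 145 collagen transcripts, without converting coordinates. Promoters are from RefSeq (GRCm38.p6). The steps were tested on simulated data. Scripts ran in Python 3.11.15, with scipy 1.17.1 for intervals, pandas 2.3.3 and numpy 2.4.6 for tables, and matplotlib 3.10.9 for plots.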

Additional observations from a re-analysis of the deposited data

How the results depend on the processing

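With 1 library per genotype, no library could be left out and the spread between embryos is unknown, so that depth narrows only the counting error. No paired analysis was possible because each genotype has 1 library. Among collagens, the number at least 2-fold higher was 3, and it was 1 with protein-coding transcripts only, where Col20a1 had 0.75 and Col6a4 was below the filter, 2 with the transcript of highest mean, where Col6a4 was below it too, 6 without the filter, 1 at a mean of at least 100, 7 at 1.5-fold and 0 at 4-fold. The protein-coding setting keeps transcripts of that type in GENCODE M21, so reads of Col20a1 and Col6a4 on transcripts not in it were left out. The number of collagens at least 2-fold lower was 1, and 0 at 4-fold. An exact binomial test on recovered reads with Benjamini-Hochberg adjustment, which compares the libraries and not the genotypes, called 13 collagens higher and 5 lower, and 2032 and 1293 of all genes tested. The fibrillar median was 0.29 without the filter. With the transcript of highest mean, the median was 0.09 over all collagens, -0.07 over those of basement membranes and 0.14 over the others. The log2 ratio of summed reads over all collagens was 0.15 with upper-quartile scaling, 0.12 with protein-coding transcripts only and 0.18 without Col9a2 and Col9a3. For fibrillar genes it was 0.24 with protein-coding transcripts only, and for the other collagens 0.26 without the gene with most reads and 0.33 without Col9a2 and Col9a3. Leaving out these genes and the GC reference were chosen after seeing the data. No median or sum of a group changed sign under the alternatives run. Of 195 values of single genes under an alternative, 9 left their counting interval and 3 changed sign, those of Col15a1, Col25a1 and Col9a3, whose intervals hold 0. The cause was not tested.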

Other observations

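Emid2, a collagen gene whose symbol falls outside the form used to choose the set, had 1965 wild-type and 2098 inversion reads (log2 ratio 0.06). Exons of Col5a1 overlap those of 2810430I11Rik (58 and 73 reads) and Gm13372 (29 and 52 reads) on the opposite strand, and exons of Col9a3 overlap those of Tcfl5 (14 and 15 reads), each with far fewer reads than the collagen gene.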
